A study of Mus musculus with 16 samples.

Results

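The Ndrg family consists of 4 mouse genes, Ndrg1, Ndrg2, Ndrg3 and Ndrg4, which were the 4 rows bearing these names among the 54532 genes of the deposited expression table. All 4 were described across 16 RNA-seq libraries of subcutaneous tumours grown from B16F10, a mouse melanoma cell line, in 8-week-old C57BL/6J mice of both sexes. The family was selected on measured values of these same libraries: Ndrg2 was called lower in BdP tumours than in wild-type tumours under both treatments, and it had been singled out for its difference between cisplatin and PBS in wild-type tumours. Those 3 differences of Ndrg2, and the interaction built from them, are therefore given as a description with no test.

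The first group, BdP cisplatin, held tumours of BdP cells, the Pros1-deficient line that one label field calls a Pros1 knockdown, from mice given intraperitoneal cisplatin at 5 mg/kg once daily for 3 days in 2 rounds, on days 1 to 3 and 7 to 9 of the experiment. The second, BdP PBS, held tumours of the same cells from mice given PBS on the same schedule. The third and the fourth, WT cisplatin and WT PBS, held tumours of wild-type B16F10 cells from mice given cisplatin or PBS in the same way. Each group had 4 libraries, treatment began 8 days after implantation, when tumours could be felt, and RNA was taken from disaggregated end-stage tumours. Pros1 encodes protein S, a plasma anticoagulant and ligand of the TAM receptor kinases, and cisplatin is a drug that crosslinks DNA. Whether BdP is a single clone, and whether each library came from its own mouse, were not given in the sources used here, so p-values measure the spread between these samples.

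NDRG proteins, named for N-myc downstream regulated genes, share an alpha/beta hydrolase fold without a known enzymatic activity. NDRG1 is induced by hypoxia, metal chelation and cell stress, is repressed by Myc proteins, is phosphorylated by the kinase SGK1, and is needed for the upkeep of myelin by Schwann cells. NDRG2 is abundant in astrocytes, muscle and other differentiated tissues and is studied as a candidate tumour suppressor, NDRG3 is known from human cells as a protein that binds lactate and accumulates in hypoxia, and NDRG4 is best known from brain and heart.

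The promoter sequence of Ndrg2 is shown because Ndrg2 is the member whose level differed most between the tumours. RefSeq windows of 250 bases before and 50 bases after an annotated start (build GRCm38.p6) numbered 3 for Ndrg2, 2 for Ndrg3, 4 for Ndrg4 and 0 for Ndrg1. The windows below, on the minus strand of chromosome 14, lie at chr14:51913439-51913738 and chr14:51913955-51914254. Both strands were searched for the core of a hypoxia-inducible factor site, which is ACGTG in one form and has G as its first letter (GCGTG) in the other. They were also searched for the E-box bound by Myc with Max, CACGTG, which contains the first form of the core, and for the TATA box, spelled TATAAA. Capitals mark the matches.
Ndrg2 promoter, middle start: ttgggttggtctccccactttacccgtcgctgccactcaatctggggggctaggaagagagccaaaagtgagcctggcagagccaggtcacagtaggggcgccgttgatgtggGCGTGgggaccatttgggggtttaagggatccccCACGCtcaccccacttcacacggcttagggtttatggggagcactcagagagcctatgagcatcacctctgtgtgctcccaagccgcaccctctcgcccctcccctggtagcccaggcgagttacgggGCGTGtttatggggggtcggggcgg
Ndrg2 promoter, most upstream start: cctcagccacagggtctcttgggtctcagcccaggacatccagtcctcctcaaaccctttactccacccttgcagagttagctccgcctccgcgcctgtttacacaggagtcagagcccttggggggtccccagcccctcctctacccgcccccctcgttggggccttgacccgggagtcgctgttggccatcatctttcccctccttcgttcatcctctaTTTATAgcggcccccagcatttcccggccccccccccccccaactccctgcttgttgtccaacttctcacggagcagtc
The window of the middle start held 3 matches to the hypoxia core, beginning 137 and 103 bases before the start and 25 bases after it. The most upstream window held 0 hypoxia cores and 1 TATAAA match on the other strand, beginning 29 bases before the start. The downstream window, which overlaps the middle one, held 1 hypoxia core, the same site as the match 25 bases after the middle start. No Ndrg2 window held CACGTG. Among the other members, the Ndrg3 windows held 2 and 0 hypoxia cores, and the Ndrg4 windows held 1, 4, 0 and 0, with 1 CACGTG in the second. Of those 4 matches, 2 are that CACGTG read on each strand. Of all 32851 RefSeq windows of this length, 43.8% held a hypoxia core, 7.2% held CACGTG and 13.6% held TATAAA. GC content was 67.7%, 62.3% and 62.3% in the Ndrg2 windows, against a median of 52.7% over all windows. A match is a string of letters and not a measured binding site.

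The deposited levels are FPKM, fragments per kilobase of gene model scaled by a factor for each library. In every library that factor matched the median-of-ratios size factor of reads recovered from the FPKM (ratio of 1). It thus followed the reads of the typical gene and not the total of reads. Reads assigned to genes, recovered from the FPKM, ranged over 10051843 to 27055771 per library with a median of 21119708.5. The WT PBS 1 library stood apart: 76.9% of its reads came from mitochondrial genes, which left 2322202 other reads, while WT cisplatin 3 and WT cisplatin 4 had 12.2% and 21.7% and the rest 2.03% to 5.06%. Pros1 was lower in every BdP library (1.24 to 2.52 FPKM) than in every WT library (4.79 to 11.5 FPKM). Melanocyte and melanoma markers summed to between 4903 and 8928 FPKM in every library, and leukocyte, T cell and erythroid markers varied widely within each group. In bulk tumour RNA, fewer cells of a type and less RNA per cell cannot be told apart.

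Between members, Ndrg1 and then Ndrg3 had the highest levels per kilobase in most tumours, and the place of Ndrg2 differed with genotype. Ndrg1 was the highest member in 16 of 16 libraries, at 30.1 ± 8.17 FPKM over all libraries (SD, n = 16), and Ndrg3 came next in 15 of 16, at 9.49 ± 1.21 FPKM. WT cisplatin 4 was the exception, with Ndrg2 at 1.21 times the level of Ndrg3. Ndrg2 was the lowest member in all 8 BdP libraries, and Ndrg4 was the lowest in all 8 WT libraries.

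The ratios between members next to each other in level show where the order was narrow. The Ndrg1 to Ndrg3 ratio of levels lay between 2.25 and 4.98 in BdP cisplatin, 2.74 and 3.83 in BdP PBS, 2.17 and 4.17 in WT cisplatin, and 1.63 and 3.38 in WT PBS. Ndrg2 and Ndrg4 lay closer in BdP tumours: the Ndrg2 level was 0.537 to 0.922 of that of Ndrg4 in BdP cisplatin and 0.513 to 0.963 in BdP PBS. In WT tumours Ndrg2 exceeded Ndrg4 by 2.82 to 4.58 times under cisplatin and by 1.79 to 3.55 times under PBS. Ndrg2 and Ndrg3 were near each other in WT cisplatin only as single libraries show, with a ratio of 0.917 to 1.21, so their order there did not exceed the spread between libraries.

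**Figure D1:**
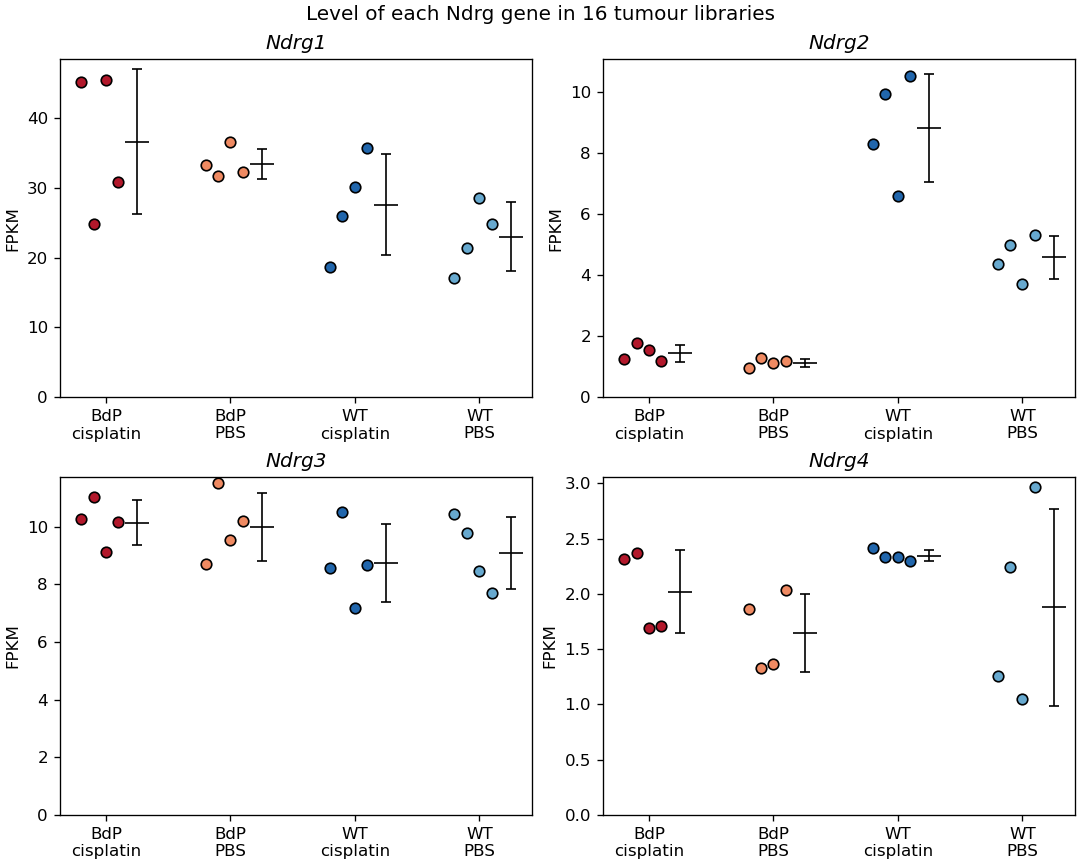
Level of each Ndrg gene (vertical axis, FPKM, separate scale for each gene and starting at 0) in the 4 libraries of each group, with the group mean and SD to the right of the points. The 8 BdP points of Ndrg2 all lie at or below 1.78 FPKM and its 8 WT points all lie at or above 3.72 FPKM, while the ranges of Ndrg3 and Ndrg4 overlap between the groups compared.

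The summed level of the family overlapped between the groups compared except under PBS, where the 4 BdP libraries (44.8 to 48.5 FPKM) lay above the 4 WT libraries (33.1 to 41.7 FPKM). It averaged 50.2 ± 9.60 FPKM in BdP cisplatin, 46.2 ± 1.61 in BdP PBS, 47.5 ± 7.95 in WT cisplatin and 38.5 ± 3.90 in WT PBS (SD, n = 4 each). Ndrg2 made up 2.99% ± 1.00 of that sum in BdP cisplatin, 2.46% ± 0.292 in BdP PBS, 18.7% ± 3.30 in WT cisplatin and 12.0% ± 2.08 in WT PBS. The share of Ndrg1 was 71.9% ± 7.42 in BdP cisplatin and 72.3% ± 2.91 in BdP PBS, against 57.5% ± 7.52 in WT cisplatin and 59.1% ± 7.29 in WT PBS. These shares rest on the same values that chose the family and are a description.

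**Figure D2:**
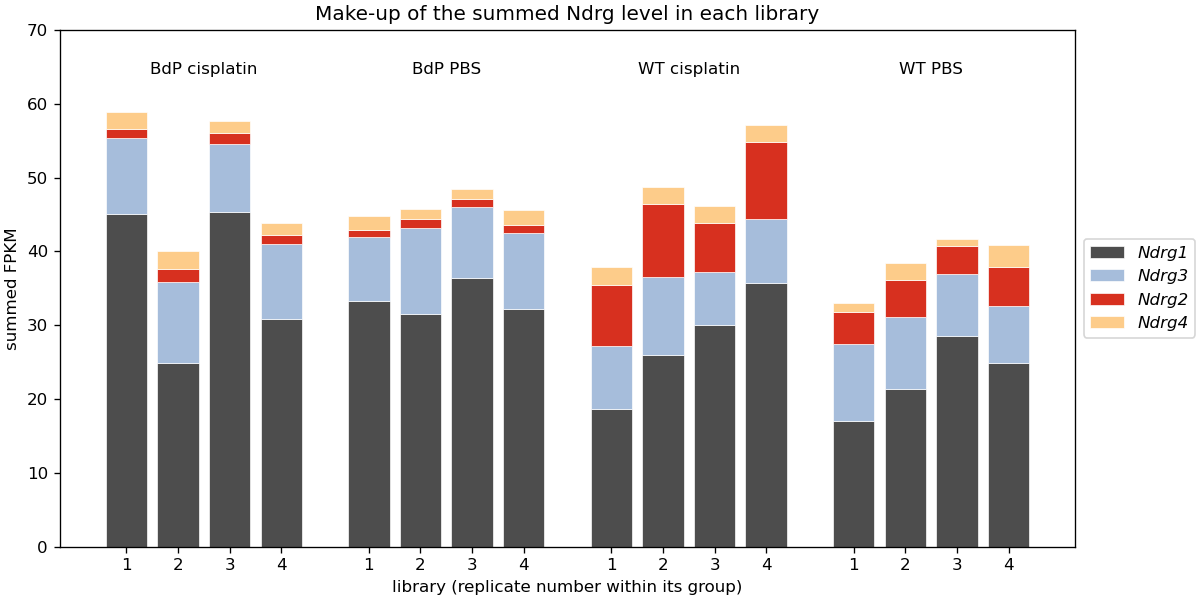
Summed FPKM of the 4 Ndrg genes (vertical axis, from 0) in each of the 16 libraries, stacked by gene and grouped as labelled. The Ndrg2 band is 2.11% to 4.44% of the bar in BdP cisplatin and 14.3% to 21.9% in WT cisplatin.

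Ndrg2 (ENSMUSG00000004558, chromosome 14 from 51905271 to 51914158, minus strand, GRCm38) is the candidate tumour suppressor of the family. Its level was 1.25, 1.78, 1.56 and 1.20 FPKM in the 4 BdP cisplatin libraries and 0.954, 1.28, 1.13 and 1.18 FPKM in the BdP PBS libraries. It was 8.29, 9.92, 6.59 and 10.5 FPKM in the WT cisplatin libraries and 4.37, 4.98, 3.72 and 5.32 FPKM in the WT PBS libraries. Every BdP library was below every WT library, and every WT cisplatin library was above every WT PBS library, while the BdP cisplatin and BdP PBS libraries overlapped. The means were 1.44 ± 0.273 FPKM in BdP cisplatin and 8.83 ± 1.77 FPKM in WT cisplatin, 6.12-fold lower in BdP. Under PBS they were 1.14 ± 0.136 FPKM in BdP and 4.60 ± 0.703 FPKM in WT, 4.04-fold lower in BdP (SD, n = 4 each).

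On the log2(FPKM + 1) scale on which all genes were fitted, these Ndrg2 differences were -2.00 ± 0.14 (SE) under cisplatin and -1.38 ± 0.14 under PBS. The pseudocount of 1 shrinks differences of genes near 1 FPKM, and the log2 ratios of the mean levels were -2.61 and -2.01. In each comparison 12319 genes were tested. A gene was called when its p from limma, adjusted over all genes tested by the Benjamini-Hochberg method, was under 0.05. That rule called 132 genes (1.07%) for BdP over WT under cisplatin, with 43 higher and 89 lower, and 122 genes (0.99%) under PBS, with 51 higher and 71 lower. Ndrg2 is 1 of the genes in both counts, and since those calls chose it, nothing is read from its place among them. Groups did not overlap for 13.0% of genes tested under cisplatin and 7.68% under PBS.

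In WT tumours Ndrg2 averaged 8.83 ± 1.77 FPKM under cisplatin and 4.60 ± 0.703 FPKM under PBS, a ratio of 1.92 and a difference of 0.80 ± 0.14 on the log2(FPKM + 1) scale. That difference helped to choose the family and is a description. The comparison called 1 gene (0.00812%), which was not Ndrg2, and 3.24% of genes had groups that did not overlap. In BdP tumours, where Ndrg2 was not chosen for its response to the drug, it averaged 1.44 ± 0.273 FPKM under cisplatin and 1.14 ± 0.136 FPKM under PBS. The log2 difference was 0.19 ± 0.14 (95% interval -0.11 to 0.49), which limma did not call (adjusted p = 1), and 2 of 4 cisplatin libraries lay above all PBS libraries (two-sided exact permutation p = 0.114). That comparison called 0 of 12319 genes (0%) by limma and 0 by limma voom on recovered reads, with 542 genes at an unadjusted p under 0.05, and 4.42% of genes had groups that did not overlap. The interaction, the cisplatin difference in BdP minus that in WT tumours, was -0.61 ± 0.20 (SE) for Ndrg2. It contains the WT difference that chose the gene and is a description.

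**Figure D3:**
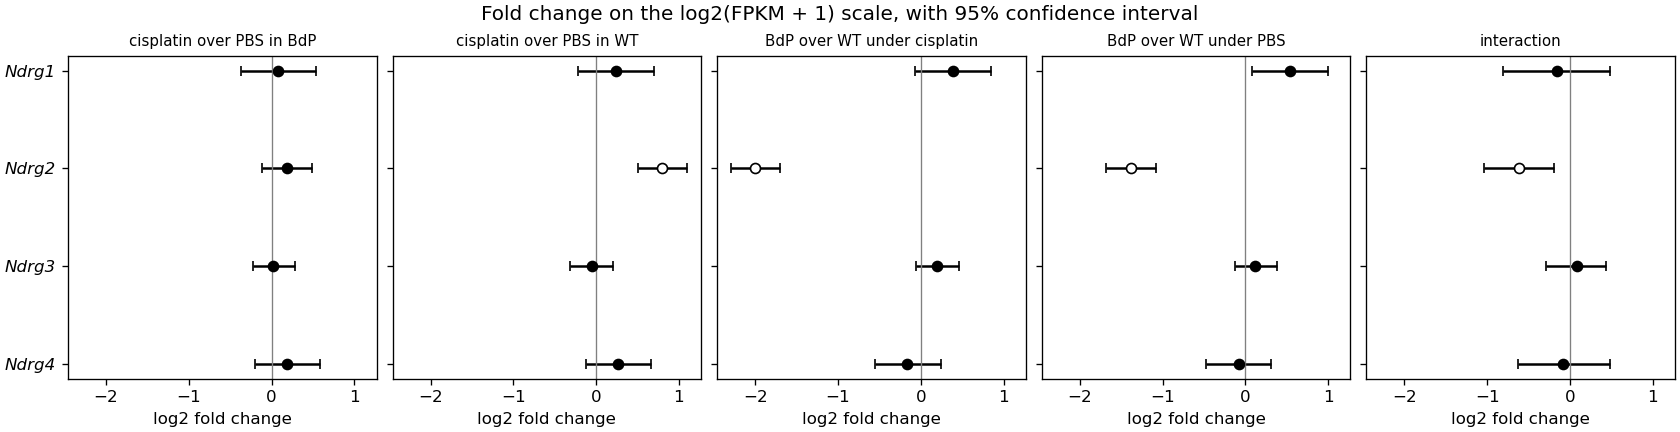
Log2 fold change of each Ndrg gene on the log2(FPKM + 1) scale (horizontal axis) with its 95% confidence interval from limma, for the 4 comparisons and their interaction. Open symbols mark the Ndrg2 values that chose the family, -2.00, -1.38 and 0.80, and the interaction built from them, -0.61, which are a description. Of the filled symbols, only that of Ndrg1 in BdP over WT under PBS has an interval without 0 (0.08 to 1.00).

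Read depth behind these Ndrg2 levels was modest. Ndrg2 had 89 to 139 reads in the BdP cisplatin libraries, 96 to 114 in BdP PBS, 420 to 826 in WT cisplatin and 29 to 477 in WT PBS. The 29 reads were those of WT PBS 1, and their exact Poisson interval, which covers counting error only, spans 2.93 to 6.28 FPKM at a confidence level of 95%. Without the 3 libraries that had over 10% mitochondrial reads, the Ndrg2 differences were -2.05 under cisplatin, -1.40 under PBS and 0.84 for cisplatin over PBS in WT tumours. On TPM recomputed over non-mitochondrial genes, the PBS difference was -1.34 and was no longer called.

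Markers of other cell types that express Ndrg2 were set beside it. Of 8 neuron markers 1 was tested, Tubb3, a tubulin that melanoma cells also make, and it carried nearly all of the list's sum. The summed list was 46.1 to 71.2 FPKM in BdP cisplatin against 53.4 to 83.8 in WT cisplatin, and 31.1 to 36.8 in BdP PBS against 46.2 to 58.4 in WT PBS. Snap25, Nefl and Nefm, which define neurons, were at 0 in all 16 libraries. Of 8 skeletal muscle markers 1 was tested, and the list summed to 1.37 to 2.95 FPKM in BdP cisplatin, 1.13 to 2.49 in BdP PBS, 1.89 to 2.69 in WT cisplatin and 1.33 to 3.54 in WT PBS. The 6 adipocyte markers, of which Lep was at 0 in every library, summed to at most 0.306 FPKM in BdP cisplatin, 0.244 in BdP PBS, 0.911 in WT cisplatin and 8.55 in WT PBS.

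Glial and leukocyte lists did not follow the genotype order of Ndrg2. The 9 Schwann and glial markers, 4 of them tested, summed to 63.7 to 97.3 FPKM in BdP cisplatin against 45.2 to 72.6 in WT cisplatin, and to 49.7 to 70.3 in BdP PBS against 38.4 to 52.0 in WT PBS. Gfap, the astrocyte filament, ranged over 5.75 to 9.02 FPKM in BdP cisplatin against 3.16 to 5.09 in WT cisplatin, which is the reverse of the order of Ndrg2. The 8 leukocyte and macrophage markers summed to 169 to 1024 FPKM in BdP cisplatin, 418 to 1305 in BdP PBS, 114 to 515 in WT cisplatin and 80.4 to 1176 in WT PBS. Of the 39 markers tested, limma called 1, Kit, listed with mast cells and also a melanocyte receptor. Kit was at 2.55 to 7.19 FPKM in BdP PBS against 0.837 to 2.01 FPKM in WT PBS. Limma called 0.99% of all genes tested in that comparison. Voom on recovered reads called Kit for BdP over WT under both treatments, and Gfap under PBS. Of 12319 genes tested, voom called 231 for BdP over WT under cisplatin and 123 under PBS. The part of these cell types in the Ndrg2 values was not tested.

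By likeness of pattern, Lamb1, Pros1, Crmp1 and Gnb4 were among the 5 protein-coding genes with the highest Pearson correlation with Ndrg2 over 16 libraries. Lamb1 encodes a laminin chain and had r = 0.97 (Spearman 0.88), and its mean was 0.518 FPKM in BdP cisplatin and 0.363 in BdP PBS, against 5.18 in WT cisplatin and 2.04 in WT PBS. Pros1 itself had r = 0.96, with 2.21 FPKM in BdP cisplatin and 1.5 in BdP PBS, against 10.3 in WT cisplatin and 6.47 in WT PBS. Crmp1 and Gnb4 had r = 0.95 and 0.93. These libraries fall into separate groups, and after group means were removed r was 0.23 for Lamb1, 0.24 for Pros1, 0.34 for Crmp1 and -0.22 for Gnb4. These 4 genes lie on chromosomes 12, 16, 5 and 3, none on chromosome 14 with Ndrg2.

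**Figure D4:**
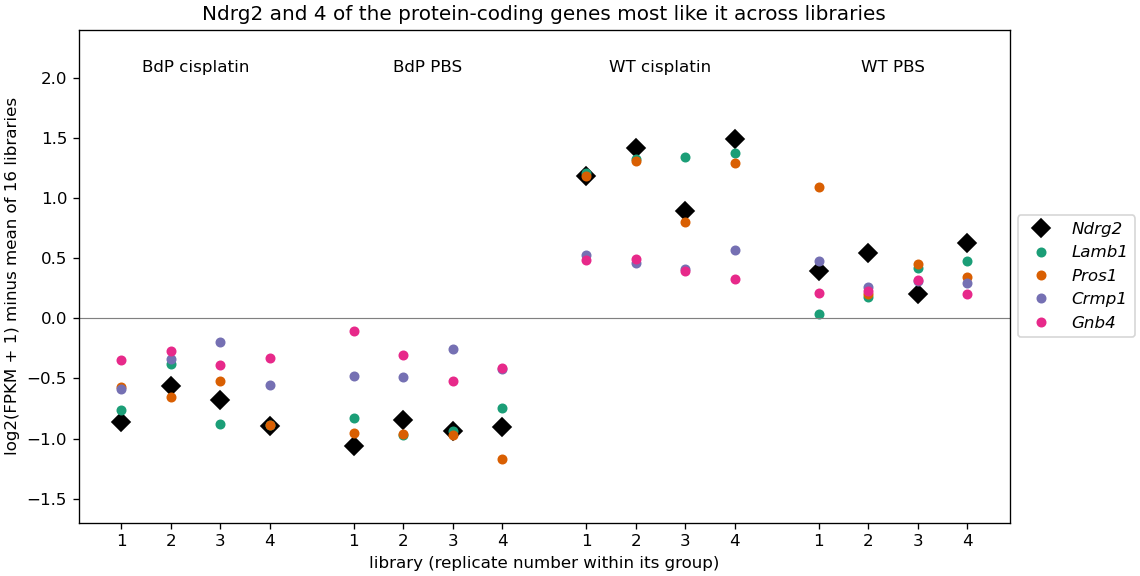
Level of Ndrg2 (black diamonds) and of 4 of the protein-coding genes most like it, as log2(FPKM + 1) minus the gene's mean over 16 libraries (vertical axis), in each library. All 5 genes lie below 0 in every BdP library and above 0 in every WT library.

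None of the genes next to Ndrg2 on chromosome 14 was called. With a start within 1 Mb of that of Ndrg2, 15 protein-coding genes were tested, and limma called 0 in each of the 5 comparisons, as did limma voom on recovered reads. At an unadjusted p under 0.05 there was 1 for BdP over WT under cisplatin, where 13.8% of all genes tested passed that limit, and there were 3 under PBS, where 19.3% did. For BdP over WT under cisplatin 7 were positive and 8 negative, between -0.26 and 1.03 with a median of -0.07, and under PBS 12 were positive and 3 negative, between -0.40 and 1.33 with a median of 0.16. The nearest, Mettl17, a methyltransferase-like gene, had 0.05 under cisplatin and 0.10 under PBS. Over all genes tested the median was 0.01 in both comparisons.

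Ndrg1 (ENSMUSG00000005125, chromosome 15 from 66929318 to 66969640, minus strand), the stress- and hypoxia-induced member, was the most abundant, with 219 to 9496 reads per library. Its level was 45.1, 24.8, 45.4 and 30.8 FPKM in the BdP cisplatin libraries and 33.3, 31.6, 36.5 and 32.2 FPKM in the BdP PBS libraries. It was 18.6, 26.0, 30.0 and 35.7 FPKM in the WT cisplatin libraries and 17.0, 21.4, 28.5 and 24.8 FPKM in the WT PBS libraries. The 4 BdP PBS libraries lay above the 4 WT PBS libraries, and the other groups overlapped.

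Under PBS, Ndrg1 averaged 33.4 ± 2.15 FPKM in BdP and 22.9 ± 4.92 FPKM in WT tumours (SD, n = 4 each), a ratio of 1.46. The log2 difference of 0.54 ± 0.22 (95% interval 0.08 to 1.00) was not called by limma over all genes (adjusted p = 0.195), and the two-sided exact permutation p was 0.0286, the smallest that 4 libraries against 4 allow and 1 of 13 such tests of member values. Without the WT PBS 1 library the log2 difference was 0.41. Groups that do not overlap were found for 7.68% of all genes in this comparison. Under cisplatin the means were 36.5 ± 10.3 FPKM in BdP and 27.6 ± 7.18 FPKM in WT tumours, a log2 difference of 0.39 ± 0.22 (95% interval -0.07 to 0.85, adjusted p = 0.44 from limma).

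The differences of Ndrg1 between cisplatin and PBS were smaller than the spread between libraries. The cisplatin over PBS difference was 0.08 ± 0.22 in BdP tumours (95% interval -0.37 to 0.54, adjusted p = 1 from limma) and 0.24 ± 0.22 in WT tumours (95% interval -0.22 to 0.70, adjusted p = 0.748). The spread itself differed: the coefficient of variation of Ndrg1 was 28.3% in BdP cisplatin and 6.45% in BdP PBS, against 26.1% in WT cisplatin and 21.5% in WT PBS. In BdP cisplatin, 2 libraries lay above and 2 below all BdP PBS libraries. The interaction was -0.16 ± 0.30 and was not called (adjusted p = 0.955 from limma), in a comparison with 0 calls (0%), 1 call by voom and 691 genes at an unadjusted p under 0.05.

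The genes most like Ndrg1 across the 16 libraries were Cln8 (r = 0.88), Peak1, Plec and Marveld1 (0.84 each) and Rab3gap2 (0.83). Cln8 acts in export from the endoplasmic reticulum, and its means were 7.02 FPKM in BdP cisplatin and 7.22 in BdP PBS, against 5.45 in WT cisplatin and 5.48 in WT PBS. After group means were removed, r of these 5 genes was 0.70 to 0.85. Ndrg1 had 4 tested protein-coding genes within 1 Mb, and 0 were called in any comparison by limma or by voom, with 1 at an unadjusted p under 0.05, for BdP over WT under PBS, a limit that 19.3% of all genes passed.

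Ndrg3 (ENSMUSG00000027634, chromosome 2 from 156927345 to 156992056, minus strand), the lactate-binding member, varied least over the series, with a coefficient of variation of 12.7% over 16 libraries. Its level was 10.3, 11.0, 9.11 and 10.1 FPKM in BdP cisplatin and 8.70, 11.5, 9.53 and 10.2 FPKM in BdP PBS. It was 8.57, 10.5, 7.19 and 8.67 FPKM in WT cisplatin and 10.4, 9.77, 8.44 and 7.70 FPKM in WT PBS. All 4 comparisons overlapped. No Ndrg3 comparison was called by limma: the log2 differences were 0.20 ± 0.12 for BdP over WT under cisplatin (95% interval -0.06 to 0.46, adjusted p = 0.479) and 0.12 ± 0.12 under PBS (-0.13 to 0.38, adjusted p = 0.566). For cisplatin over PBS they were 0.02 ± 0.12 in BdP (-0.23 to 0.28, adjusted p = 1) and -0.05 ± 0.12 in WT tumours (-0.31 to 0.20, adjusted p = 0.903). The 4 exact permutation p-values, two-sided, lay between 0.114 and 0.8. The WT difference of Ndrg3 was 0.13, and that of Ndrg1 was -0.16, without the 3 libraries over 10% mitochondrial reads, so the sign of both rests on those libraries.

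The genes most like Ndrg3 were Tmem106c (r = 0.87), Smim19, Tmem176a, Ascc1 and Retsat (0.80), again with r of 0.77 to 0.87 after group means were removed. Retsat, retinol saturase, averaged 19.8 FPKM in BdP cisplatin and 16.3 in BdP PBS, against 14.7 in WT cisplatin and 14.7 in WT PBS. Of 24 tested protein-coding genes within 1 Mb of Ndrg3, 1 was called for BdP over WT, under cisplatin and under PBS alike. Limma called 1.07% and 0.99% of all genes tested in these comparisons. The called neighbour was Myl9, a myosin light chain of contractile cells, at -3.35 (adjusted p = 0.00175 from limma) under cisplatin and -2.37 (adjusted p = 0.0267) under PBS. Voom on recovered reads called Myl9 under cisplatin only, where it called 231 of 12319 genes tested. At an unadjusted p under 0.05 there were 3 neighbours under cisplatin and 7 under PBS, limits that 13.8% and 19.3% of all genes passed.

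Ndrg4 (ENSMUSG00000036564, chromosome 8 from 95676980 to 95715119, plus strand), the brain and heart member, was low in all tumours. Its level was 2.32, 2.37, 1.69 and 1.71 FPKM in BdP cisplatin and 1.86, 1.33, 1.37 and 2.03 FPKM in BdP PBS. It was 2.42, 2.34, 2.34 and 2.30 FPKM in WT cisplatin and 1.26, 2.25, 1.05 and 2.96 FPKM in WT PBS. The SD was 0.0496 FPKM among WT cisplatin libraries and 0.893 FPKM among WT PBS libraries, whose range enclosed the WT cisplatin values. The WT PBS 1 value of 1.26 FPKM rests on 12 reads, with an exact Poisson interval of 0.649 to 2.19 FPKM.

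Ndrg4 was not called in any comparison by limma. For cisplatin over PBS the log2 difference was 0.19 ± 0.18 in BdP (95% interval -0.20 to 0.58, adjusted p = 1) and 0.27 ± 0.18 in WT tumours (-0.12 to 0.66, adjusted p = 0.69). For BdP over WT it was -0.16 ± 0.18 under cisplatin (-0.55 to 0.24, adjusted p = 0.754) and -0.08 ± 0.18 under PBS (-0.47 to 0.31, adjusted p = 0.824). The interaction terms of Ndrg3 and Ndrg4 were 0.08 ± 0.17 and -0.08 ± 0.26 (adjusted p = 0.961 and 0.978 from limma). Genes most like Ndrg4 were the repair nuclease gene Ercc5 (r = 0.87), Tmem63b, the translesion polymerase gene Rev1, Hnrnpl and Tmem59l (0.82). Ercc5 averaged 7.56 FPKM in BdP cisplatin and 5.65 in BdP PBS, against 8.78 in WT cisplatin and 6.77 in WT PBS. Of 21 tested protein-coding genes within 1 Mb of Ndrg4, 1 was called, Setd6, a lysine methyltransferase gene, at -0.43 (adjusted p = 0.0499 from limma) for BdP over WT under cisplatin. Over all genes tested, limma called 1.07% in that comparison. Voom on recovered reads called 0 of these 21. At an unadjusted p under 0.05 there were 6 of them for BdP over WT under cisplatin and 2 under PBS, limits that 13.8% and 19.3% of all genes passed.

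**Figure D5:**
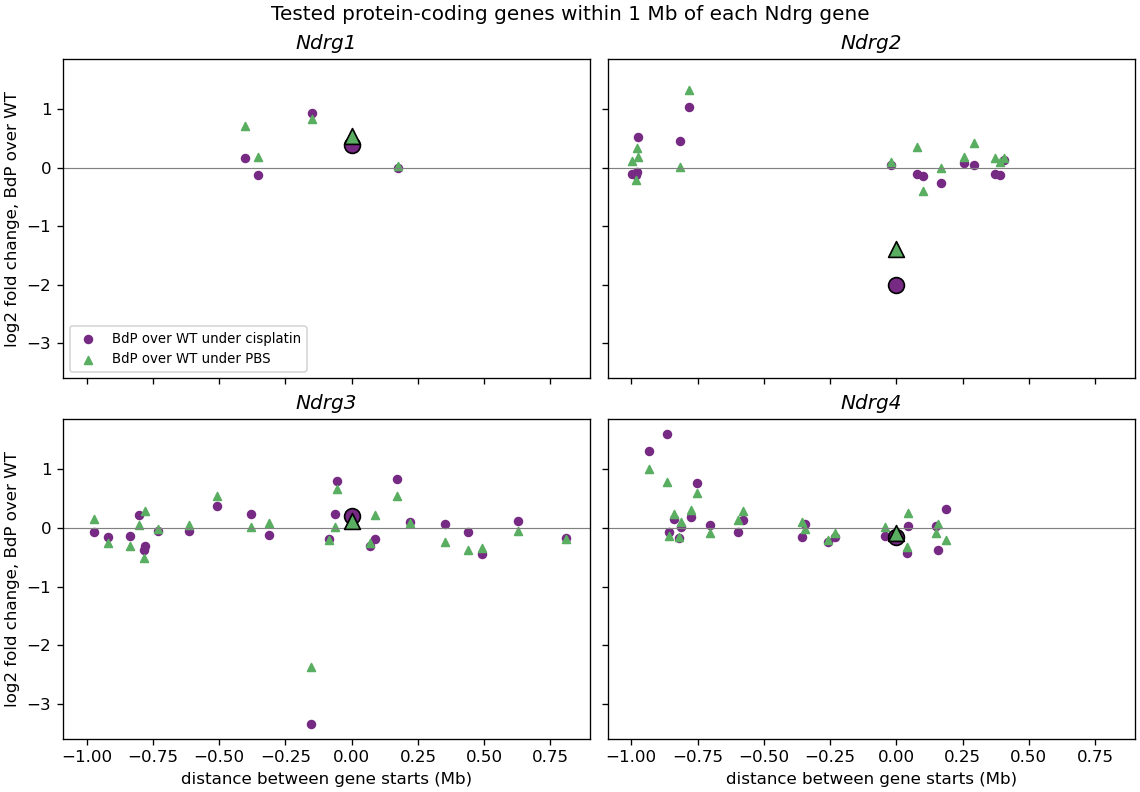
Log2 fold change of BdP over WT (vertical axis) for tested protein-coding genes within 1 Mb of each Ndrg gene, by distance between gene starts (horizontal axis, Mb), under cisplatin (circles) and under PBS (triangles); large outlined symbols are the Ndrg genes. Around Ndrg2, at -2.00 and -1.38, the 15 neighbours lie between -0.40 and 1.33, and around Ndrg3 the single low neighbour is Myl9.

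Members did not move as a block. Over 16 libraries, Pearson's r of log2(FPKM + 1) was -0.51 between Ndrg1 and Ndrg2, -0.42 between Ndrg2 and Ndrg3 and 0.40 between Ndrg2 and Ndrg4, and the other 3 pairs lay between -0.29 and -0.02. These pairs share libraries and groups, and once group means were removed r was -0.08, 0.44 and 0.39 for the same pairs and between -0.47 and -0.07 for the others. The members differ in coding sequence, and how well reads tell them apart was not tested. Their longest open reading frames, of 394, 371, 388 and 404 residues for Ndrg1 to Ndrg4, had 65.3% to 71.1% identical bases where aligned in pairs, and the longest identical run between transcripts of any pair was 33 bases, between Ndrg2 and Ndrg4. Ndrg1 overlaps the opposite-strand genes Gm2895, over 318 bases and with at most 6 reads, and Gm17035, with 0 reads, and Ndrg3 contains a small RNA gene with 0 reads. Ndrg2 and Ndrg4 overlap no annotated gene.

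Regulators of the family were examined as a list of 15 genes, of which 13 were tested: Myc, Max and Mycn, the hypoxia-inducible factors with their partner and their oxygen sensors, Vhl, Trp53, Egr1 and the SGK kinases. Limma called 0 of the 13 in each comparison, and voom on recovered reads called 1, Myc, for BdP over WT under cisplatin. In that comparison voom called 231 of 12319 genes tested. For BdP over WT, 2 under cisplatin and 3 under PBS had an unadjusted p under 0.05, as did 13.8% and 19.3% of all genes tested. For cisplatin over PBS there were 0 in BdP and 4 in WT tumours, against 4.40% and 7.74% of all genes. The interaction had 3, against 5.61%. In WT tumours Myc was at 0.59 ± 0.20 and Trp53 at 0.38 ± 0.13 (adjusted p = 0.596 each from limma). The Myc interaction was -0.94 ± 0.28 (adjusted p = 0.835 from limma). For BdP over WT under cisplatin 7 were positive and 6 negative, with a median of 0.08 against 0.01 over all genes tested. Myc, a repressor of Ndrg1 and Ndrg2 in other systems, averaged 22.9 ± 4.62 FPKM in BdP cisplatin against 42.2 ± 10.0 in WT cisplatin (log2 difference -0.84 ± 0.20, adjusted p = 0.0584 from limma), and 29.4 ± 2.86 in BdP PBS against 28.0 ± 8.10 in WT PBS. Vhl, the recognition subunit that marks hypoxia-inducible factors for degradation, was the member with the smallest p under PBS, at 17.1 ± 2.17 FPKM in BdP against 30.6 ± 11.9 FPKM in WT (-0.75 ± 0.19, adjusted p = 0.0845). Mycn was near 0, at most 0.0717 FPKM, in every library.

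Hypoxia targets and p53 targets, the classes to which Ndrg1 belongs, were likewise not called by limma. Voom on recovered reads called 1 of them, Adm, for BdP over WT under cisplatin, where it called 231 of 12319 genes tested. Of 22 hypoxia targets 21 were tested, and for BdP over WT 7 were positive and 14 negative under cisplatin (median -0.04) and 6 positive and 15 negative under PBS (median -0.17), while over all genes 51.1% and 51.3% were positive. Of these 21 targets, 3 under cisplatin and 6 under PBS had an unadjusted p under 0.05, as did 13.8% and 19.3% of all genes tested. Ndrg1 itself was at 0.39 and 0.54. Adm, the vessel peptide adrenomedullin, averaged 58.5 ± 6.47 FPKM in BdP cisplatin against 35.3 ± 5.82 in WT cisplatin (0.72 ± 0.17, adjusted p = 0.0581 from limma), and Car9, a carbonic anhydrase, averaged 127 ± 8.30 FPKM in BdP PBS against 170 ± 36.7 in WT PBS (-0.40 ± 0.14, adjusted p = 0.166). For cisplatin over PBS, 17 of 21 hypoxia targets were positive in BdP (median 0.15) and 11 of 21 in WT tumours (median 0.03), with 4 and 0 at an unadjusted p under 0.05, a limit that 4.40% and 7.74% of all genes passed.

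Of 12 p53 targets 11 were tested, and 9 of 11 were positive for cisplatin over PBS in each genotype, with medians of 0.23 in BdP and 0.29 in WT tumours. Over all genes 49.3% and 49% were positive. Cdkn1a, the cell-cycle inhibitor p21, averaged 90.5 ± 21.2 FPKM in BdP cisplatin against 42.1 ± 5.93 in BdP PBS (1.06 ± 0.28, adjusted p = 1 from limma), and 110 ± 44.7 in WT cisplatin against 72.6 ± 26.7 in WT PBS. At an unadjusted p under 0.05 there were 3 p53 targets for the drug in BdP, against 4.40% of all genes tested, and 2 in WT tumours, against 7.74%. For BdP over WT, 3 p53 targets were positive and 8 negative under each treatment, with medians of -0.26 under cisplatin and -0.25 under PBS. Over all genes 51.1% and 51.3% were positive. Under cisplatin 1 target and under PBS 4 targets had an unadjusted p under 0.05, against 13.8% and 19.3% of all genes tested. These counts are a description.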

How the data were processed

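Per the labels' protocols, RNA was extracted with the RNeasy Plus Mini kit and libraries were made with the NEBNext Ultra kit. Per the submitters' processing notes, the tools were CASAVA, HISAT2 2.0.5 and featureCounts 1.5.0-p3, with GRCm38/mm10. The authors deposited FPKM per gene with gene lengths. FPKM times length gave whole reads (within 0.1 read) for 100% of values below 1000 reads, which gave depth.

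Values were fitted as log2(FPKM + 1) with limma 3.58.1 in R 4.3.3 (trended prior), over 16 libraries in 4 groups and the 12319 genes (10891 protein-coding) that reached 1 FPKM or more in 4 or more libraries; the 4 members passed. Adjusted p-values cover all genes tested. Single values were compared by two-sided exact permutation over 70 splits. The fit was tested on simulated data. Fold changes on this scale understate those of low genes.

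The members, lists and tests were chosen with earlier results of these data known. Named list genes are the 2 of smallest p per comparison, with examples; 1 gene like Ndrg2 in pattern is not reported here. Alternatives are given in the closing section.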

Additional observations from a re-analysis of the deposited data

How the results depend on the processing

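Of the members' values under the alternatives, 436 kept direction and side of the threshold, 19 changed sign and 1 lost its call. The Ndrg2 genotype differences, which chose the family, lay between -2.12 and -1.91 under cisplatin and between -1.46 and -1.32 under PBS when 1 library was left out, as a description. Comparisons are given below as BdP response (cisplatin over PBS in BdP), WT response, genotype under cisplatin or PBS (BdP over WT), and interaction. Values that changed sign were not called in either setting.

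With no low-value filter, 1 gene was called for the BdP response and 56 for genotype under PBS. With a pseudocount of 0.1, 1 was called for the BdP response and 0 for the WT response. TPM over non-mitochondrial genes moved the all-gene median to 0.46 for the WT response, 0.40 for genotype under PBS and -0.43 for the interaction. It called 2, 0, 44 and 8 genes for the 4 comparisons and 3 for the interaction; Ndrg2 under PBS was -1.34 and not called, Ndrg3 was 0.47 for the WT response, Ndrg4 was 0.26 for genotype under PBS and the Ndrg3 interaction was -0.40, each beside those shifts. With limma voom on recovered reads, 3 genes were called for the WT response, 231 for genotype under cisplatin and 1 for the interaction. With only the 8 libraries of a comparison, 0 were called for the WT response, 251 for genotype under cisplatin and 3 for genotype under PBS. Without the 3 libraries over 10% mitochondrial reads, 1, 0, 55 and 50 genes were called for the 4 comparisons, the WT response was -0.16 for Ndrg1 and 0.13 for Ndrg3, and the interaction was 0.25 for Ndrg1, -0.11 for Ndrg3 and 0.01 for Ndrg4.

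The labels do not say that a replicate number marks a shared batch, and same-numbered libraries did not deviate together (24 pairs, r of -0.61 to 0.42, median 0.02). With the replicate number as a block, 0 genes were called for the WT response, 80 for genotype under cisplatin and 81 under PBS, and no member's call changed.

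Leaving out each library in turn gave 0 to 1 calls for the BdP response, 0 to 3 for the WT response, 50 (without WT cisplatin 1) to 310 (without WT PBS 1) for genotype under cisplatin, 25 (without BdP PBS 4) to 356 (without WT PBS 3) under PBS and 0 to 1 for the interaction. For the BdP response it gave -0.03 to 0.25 for Ndrg1 and -0.03 to 0.09 for Ndrg3, and for the WT response -0.14 to 0.03 for Ndrg3. For genotype under PBS it gave -0.22 to 0.09 for Ndrg4, and for the interaction -0.33 to 0.01 for Ndrg1, -0.0031 to 0.16 for Ndrg3 and -0.25 to 0.07 for Ndrg4. The cause of these changes was not tested. Depth limits Ndrg2 and Ndrg4 most, at 29 and 12 reads in WT PBS 1.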
